A study of Danio rerio with 15 samples.

Results

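Whole zebrafish larvae from parents on the high-arsenic diet were compared with larvae from parents on the control diet, across all genes with enough counts to test. The members are 10 of the 15 RNA sequencing libraries of the series, 5 named High_1 to High_5 and 5 named Control_1 to Control_5, chosen by their sample labels. All fish were wild type. The parents were adult zebrafish fed for 60 days, at a ration of 3.5% of body weight, on blackworms (Lumbriculus variegatus) that had been held for 14 days in water with sodium arsenite at 5.0 mg/L for High and 0 mg/L for Control. Worm arsenic in the High diet was 72.47 ± 4.62 µg/g, and that in the Control diet below 0.05 µg/g, by the labels. The offspring of both groups grew in medium without added arsenic and were collected whole at 5 days post fertilization, so no larva was itself given the diet. The labels put the number 20 beside the larvae without saying whether it applies to each library. The other 5 libraries, named Low (worms from 2.5 mg/L, 32.4 µg/g by the sample labels), enter the fit and appear only where High was also set against them.

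A diet of this kind carries arsenic from water through a prey animal into the adult fish. Inorganic arsenic binds thiol groups of proteins, is reduced and methylated by enzymes such as arsenite methyltransferase, and in directly exposed cells is a known inducer of heat shock and antioxidant genes. At 5 days a zebrafish larva has a working retina, rich in cones, a liver, a pancreas and a gut, and lives on the last of its yolk; RNA from the whole animal mixes all of these. In such bulk RNA, fewer cells of a type and less RNA per cell cannot be told apart.

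Depth was 21.2 to 36.1 M counts in High and 23.8 to 59.9 M in Control (mega counts), with Control 5 the deepest library. Transcripts of the digestive organs varied more between libraries of 1 group than between groups. The mean log2 CPM of the tested pancreas, intestine and liver list members was 3.32, 4.98, -0.25, 5.72 and 5.64 in High 1 to 5, against 2.65, 5.92, 0.76, 3.64 and -0.21 in Control 1 to 5 (CPM, counts per M of the library total after scaling by the TMM method). High 3 and Control 5 were the libraries poorest in these transcripts, and the difference of the means, 1.33, was within the spread (two-sided exact permutation test, p = 0.429). The liver fatty acid binding protein gene fabp10a, for example, reached 360 to 622 CPM in 4 High libraries and only 0.739 CPM in High 3, against 0.905 CPM in Control 5 and 14.0 to 524 CPM in the other Control libraries. The alpha globin gene hbaa1 (ENSDARG00000097011), picked after its values were seen, was at 3.76 CPM in High 4 and 243 CPM in High 5. In High 1 to 3 it was at 2503, 1515 and 2632 CPM, and in Control at 657 to 2191 CPM. The labels do not say that libraries of a group came from separate clutches or parents, so p-values here measure only the spread between these libraries.

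Between High and Control larvae 115 of 22012 genes tested passed edgeR's quasi-likelihood test at a Benjamini-Hochberg adjusted p under 0.05, which is 0.522% of them. Of these, 42 rose (0.191%) and 73 fell (0.332%). The changes were mostly moderate. The median log2 fold change was 0.60 among the genes that rose and -0.86 among those that fell, and 37 of the 115 changed by 2-fold or more, 9 up and 28 down. In 110 of the 115 the 5 High values lay wholly above or wholly below the 5 Control values, as they did in 4.41% of all genes tested, a share that the choice of the 115 by this same contrast makes uninformative about them. At an unadjusted p under 0.05, 15.8% of genes differed, 7.18% higher and 8.63% lower.

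The number of genes that passed turned on single libraries. It was 20, 35, 362, 38 and 49 without High 1 to 5 in turn, and 27, 29, 88, 19 and 122 without Control 1 to 5. Among the 115, High 3 was the High library nearest to the Control mean for 49 genes, and the other High libraries for 9 to 23 each. On the other side, Control 5 was the Control library nearest to the High mean for 48 genes. Without Control 5 and High 3 together, the libraries poorest in digestive transcripts in their groups, 317 genes passed; this fit was added after the data were seen. The part of digestive content in these counts was not tested. With the digestive mean as a covariate 85 genes passed (24 higher and 61 lower), 73 of them among the 115. All 115 kept their direction, which says little because they were chosen by this same contrast. DESeq2 called 920 genes, 461 higher and 459 lower, so the excess of genes that fell was not seen there. With limma voom and sample weights 275 passed (120 higher and 155 lower), and in a fit on the High and Control libraries alone, the 2-group fit, 51 passed (17 higher and 34 lower).

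**Figure D1:**
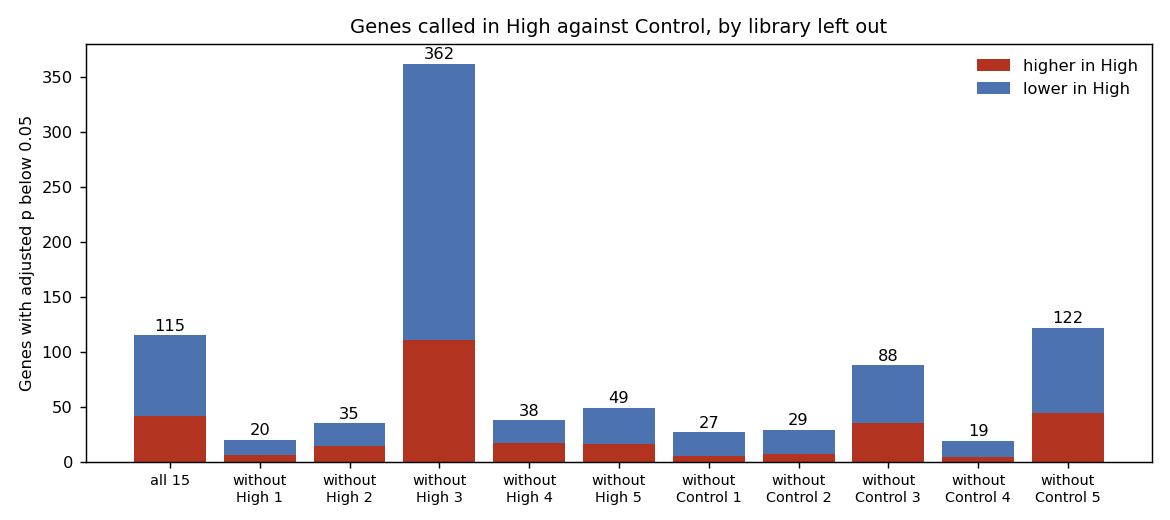
The bars give the number of genes with an adjusted p below 0.05 in High against Control (y axis) with all 15 libraries and with 1 High or Control library left out (x axis), split into genes higher in High (red) and lower in High (blue). The bar without High 3 reaches 362, and those without High 1 and Control 4 fall to 20 and 19.

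The genes whose calls stood in all 10 fits with 1 library left out number 17, of which 4 rose and 13 fell, and 12 of the 17 carry an informative symbol. Among the 4 that rose was slc24a2 (ENSDARG00000042988), a potassium-dependent exchanger that moves calcium out of cells against sodium. It had 70.1, 57.6, 63.5, 53.3 and 71.5 CPM in High 1 to 5, against 26.6, 29.6, 34.4, 31.8 and 26.1 CPM in Control 1 to 5. The lowest High library was above the highest Control library, and the log2 fold change was 1.09 (SE 0.14, edgeR adjusted p = 0.005). A copy annotated SLC24A2 (ENSDARG00000063158) was at -0.025 on that scale (edgeR adjusted p = 0.96). DHRS13 (ENSDARG00000026322), of the short-chain dehydrogenase and reductase family that includes retinol dehydrogenases, had 35.3, 42.9, 43.2, 31.7 and 31.2 CPM in High 1 to 5, against 23.5, 19.3, 18.8, 20.6 and 24.3 CPM in Control 1 to 5. All 5 High libraries were again above all 5 Control libraries, and the log2 fold change was 0.79 (SE 0.11, edgeR adjusted p = 0.0097). The other tested copies annotated DHRS13 had log2 fold changes of 0.40, 0.24 and 0.14 and did not pass (edgeR adjusted p = 0.16, 0.71 and 0.82).

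The gene with the smallest p of all was slc1a8b (ENSDARG00000032465), of the glutamate transporter family. It had 0.401, 0.241, 0.492, 0.232 and 0.491 CPM in High 1 to 5, against 4.51, 2.64, 6.40, 3.65 and 1.97 CPM in Control 1 to 5. In every High library it was close to silent, and the log2 fold change was -3.35 (SE 0.35, edgeR adjusted p = 0.0017). For ATP1B2 (ENSDARG00000034424), whose product is a regulatory beta chain of the sodium pump, the values were 1.26, 0.930, 0.985, 1.30 and 1.06 CPM in High 1 to 5, against 2.78, 11.02, 9.54, 6.61 and 7.32 CPM in Control 1 to 5. Control 1 was the lowest Control library and still above every High library, and the log2 fold change was -2.75 (SE 0.41, edgeR adjusted p = 0.011). The other copy annotated ATP1B2 (ENSDARG00000099203) was at 322 ± 37.04 CPM in High and 338 ± 35.1 CPM in Control (SD, n = 5 each), with a log2 fold change of -0.069. TMEM175 (ENSDARG00000076376), a lysosomal ion channel gene, had 0, 0.0689, 0, 0.0464 and 0.164 CPM in High 1 to 5, against 0.978, 0.911, 1.44, 0.974 and 0.533 CPM in Control 1 to 5. The High libraries were at or near 0, so that the size of its change (log2 fold change -4.06, SE 0.60, edgeR adjusted p = 0.011) depends on the prior count of the fit.

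Further genes of this set that fell were ARRDC2 (an arrestin-domain gene), esrrd (a nuclear receptor of the estrogen-related group), bnip4 (a BCL2-interacting protein gene), NEK6 (a kinase of mitosis), REL (an NF-kB subunit) and CEBPD (a C/EBP transcription factor). NEK6 (ENSDARG00000037963) had 6.16, 7.72, 7.96, 6.78 and 7.90 CPM in High 1 to 5, against 16.5, 15.9, 11.2, 14.2 and 12.8 CPM in Control 1 to 5. The groups were well apart, and the log2 fold change was -0.95 (SE 0.14, edgeR adjusted p = 0.011). For bnip4 (ENSDARG00000022832) the values were 6.61, 5.34, 8.33, 4.55 and 6.59 CPM in High 1 to 5, against 12.2, 13.5, 15.2, 12.4 and 11.8 CPM in Control 1 to 5. No High library reached the lowest Control library, and the log2 fold change was -1.05 (SE 0.15, edgeR adjusted p = 0.011). ARRDC2 and esrrd fell by 1.40 and 1.30 on the log2 scale, with all 5 High libraries below all 5 Control libraries for both genes.

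**Figure D2:**
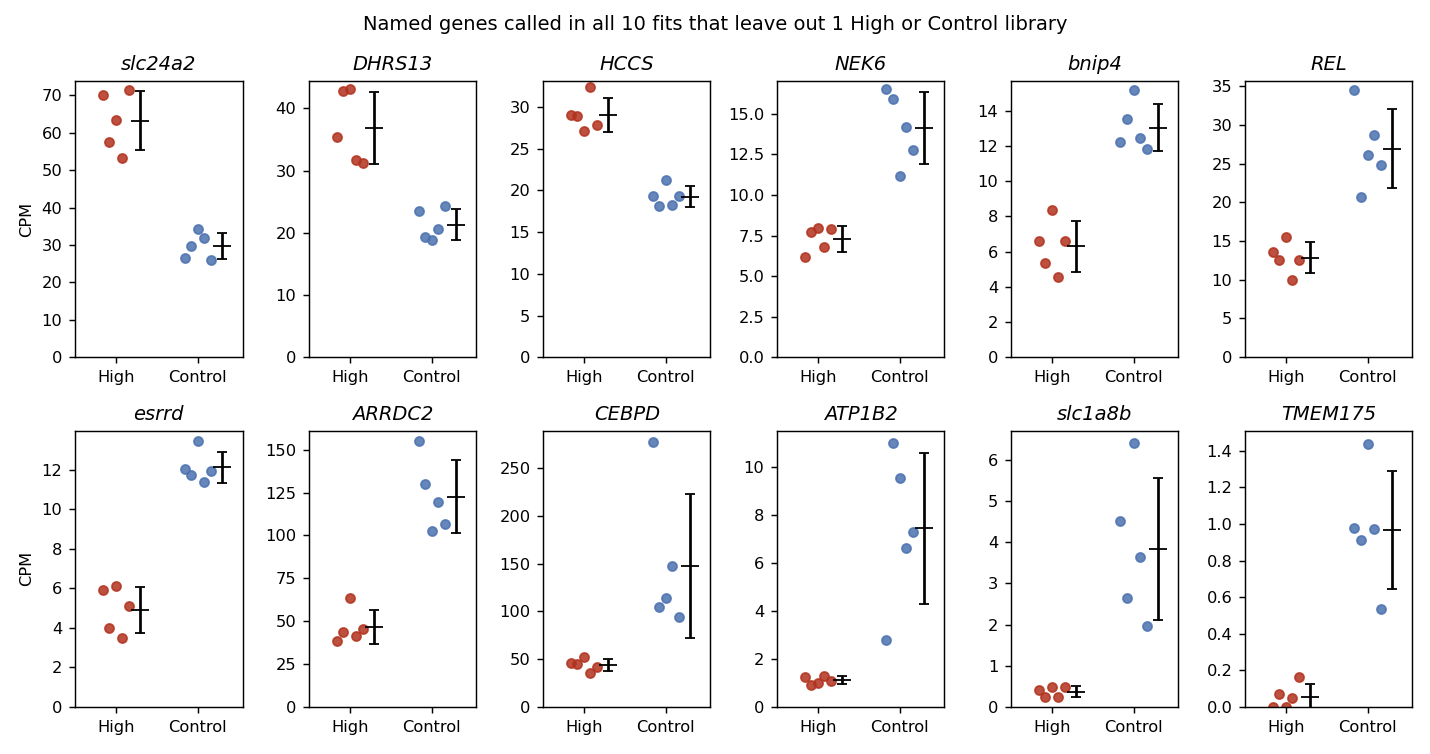
Each panel is 1 of the 12 genes with an informative symbol that passed in High against Control in all 10 fits with 1 library left out; points are CPM (y axis, from 0) in the 5 High (red) and 5 Control (blue) libraries, and the bars are the mean ± SD. In none of the 12 panels do the High and Control points overlap, which is uninformative because the genes were chosen by this same contrast.

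Among other genes that rose with the smallest p were HCCS, YME1L1 and spag1a. HCCS attaches heme to cytochrome c, a step that both respiration and cell death depend on, and the files hold several identifiers under that symbol. The first (ENSDARG00000099358) had 29.00, 28.9, 27.1, 32.4 and 27.9 CPM in High 1 to 5, against 19.4, 18.1, 21.2, 18.2 and 19.3 CPM in Control 1 to 5. Its smallest High value was above its largest Control value, the log2 fold change was 0.59 (SE 0.075, edgeR adjusted p = 0.005), and the call stood in all 10 fits with 1 library left out. The second tested copy (ENSDARG00000028131), outside the rule for naming and picked after its values were seen, had 16.2 ± 1.04 CPM in High and 11.9 ± 0.695 CPM in Control (SD, n = 5 each). Its log2 fold change was 0.45 (SE 0.091, edgeR adjusted p = 0.042), and it was called in 1 of 10 such fits and not with the digestive covariate (adjusted p = 0.053) or in the 2-group fit (0.0714). YME1L1 (ENSDARG00000075192), a protease of the inner mitochondrial membrane, had 40.5 ± 5.07 CPM in High and 25.9 ± 2.01 CPM in Control, and the log2 fold change was 0.64 (SE 0.11, edgeR adjusted p = 0.022; 6 calls in 10 fits with 1 library left out, up to an adjusted p of 0.074 without Control 4). Since near-identical copies can share reads, values of the HCCS pair are uncertain. The gene spag1a (ENSDARG00000004017), an assembly factor of dynein arms in cilia, rose by 0.59 (SE 0.10, edgeR adjusted p = 0.02; 6 calls in 10 fits with 1 library left out, up to an adjusted p of 0.062 without Control 4).

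Cone photoreceptor genes passed in both directions. Cones detect light through an opsin that activates the G protein transducin, which leads to closure of cyclic nucleotide-gated channels; arrestin and the calcium exchanger then help to shut the response off. Of 31 tested members of the cone list, 3 rose (ARR3, CNGA3 and slc24a2) and 1 fell (GNAT2), against the 0.522% background of all genes. This list, like the others below, was chosen with earlier results of these data known, which bears on each comparison with all genes. The list median was -0.16, with 13 members above 0, and over all genes tested the median was -0.015. ARR3 (ENSDARG00000098475), the cone arrestin, had 122, 68.4, 81.3, 68.4 and 113 CPM in High 1 to 5, against 37.6, 25.8, 42.1, 38.9 and 40.5 CPM in Control 1 to 5. Control 2 was the lowest of the High and Control libraries, the groups did not overlap, and the log2 fold change was 1.29 (SE 0.22, edgeR adjusted p = 0.022). This copy was called in 6 of 10 fits with 1 library left out, up to an adjusted p of 0.072 without Control 4. A second ARR3 copy (ENSDARG00000056511) had 28.1 ± 6.66 CPM in High and 27.8 ± 6.59 CPM in Control, a log2 fold change of 0.019 with an SE of 0.28.

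CNGA3 encodes the alpha subunit of the cone channel. The copy that passed (ENSDARG00000070726) had 23.02, 18.7, 19.2, 24.1 and 28.1 CPM in High 1 to 5, against 9.74, 14.3, 14.3, 12.2 and 12.97 CPM in Control 1 to 5. All High libraries were above all Control libraries, and the log2 fold change was 0.83 (SE 0.16, edgeR adjusted p = 0.033; 4 calls in 10 fits with 1 library left out, up to an adjusted p of 0.091 without Control 4). The second copy (ENSDARG00000012297), outside the rule for naming, was at 8.42 ± 1.63 CPM in High and 4.43 ± 0.810 CPM in Control, with a fold change of 0.93 on the log2 scale (SE 0.25, edgeR adjusted p = 0.098). GNAT2 (ENSDARG00000042529), which encodes cone transducin's alpha subunit, went the other way, with 233, 158, 209.7, 229 and 197 CPM in High 1 to 5, against 298, 444, 389, 337 and 342 CPM in Control 1 to 5. Control 1 was the Control library nearest to High, and the log2 fold change was -0.82 (SE 0.17, edgeR adjusted p = 0.042; 1 call in 10 fits with 1 library left out, up to an adjusted p of 0.11 without High 2). With the digestive covariate the adjusted p became 0.051 for CNGA3 and 0.053 for GNAT2, which ends both calls. The opsin readouts did not pass: the green opsin gene opn1mw1 (ENSDARG00000097008) had 470 ± 126 CPM in High and 610.0 ± 157 CPM in Control, and the red opsin gene opn1lw1 (ENSDARG00000044862) 19.8 ± 12.2 CPM in High and 22.6 ± 5.37 CPM in Control (SD, n = 5 each). Their groups overlapped, with log2 fold changes of -0.38 and -0.19 (edgeR adjusted p = 0.455 and 0.885). Another green opsin gene, opn1mw2 (ENSDARG00000044280), and the cone transducin beta gene gnb3b (ENSDARG00000002696), picked after their values were seen, had log2 fold changes of -0.81 and -0.57 that did not pass (edgeR adjusted p = 0.051 and 0.13). Outside the list, and picked in the same way, the photoreceptor genes ANKRD33 and UNC119 (a carrier of lipid-modified proteins such as transducin) rose by 1.04 and 0.51 on the log2 scale (edgeR adjusted p = 0.037 and 0.035; each called in 3 of 10 fits with 1 library left out). In the 2-group fit UNC119 was at an adjusted p of 0.0705.

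**Figure D3:**
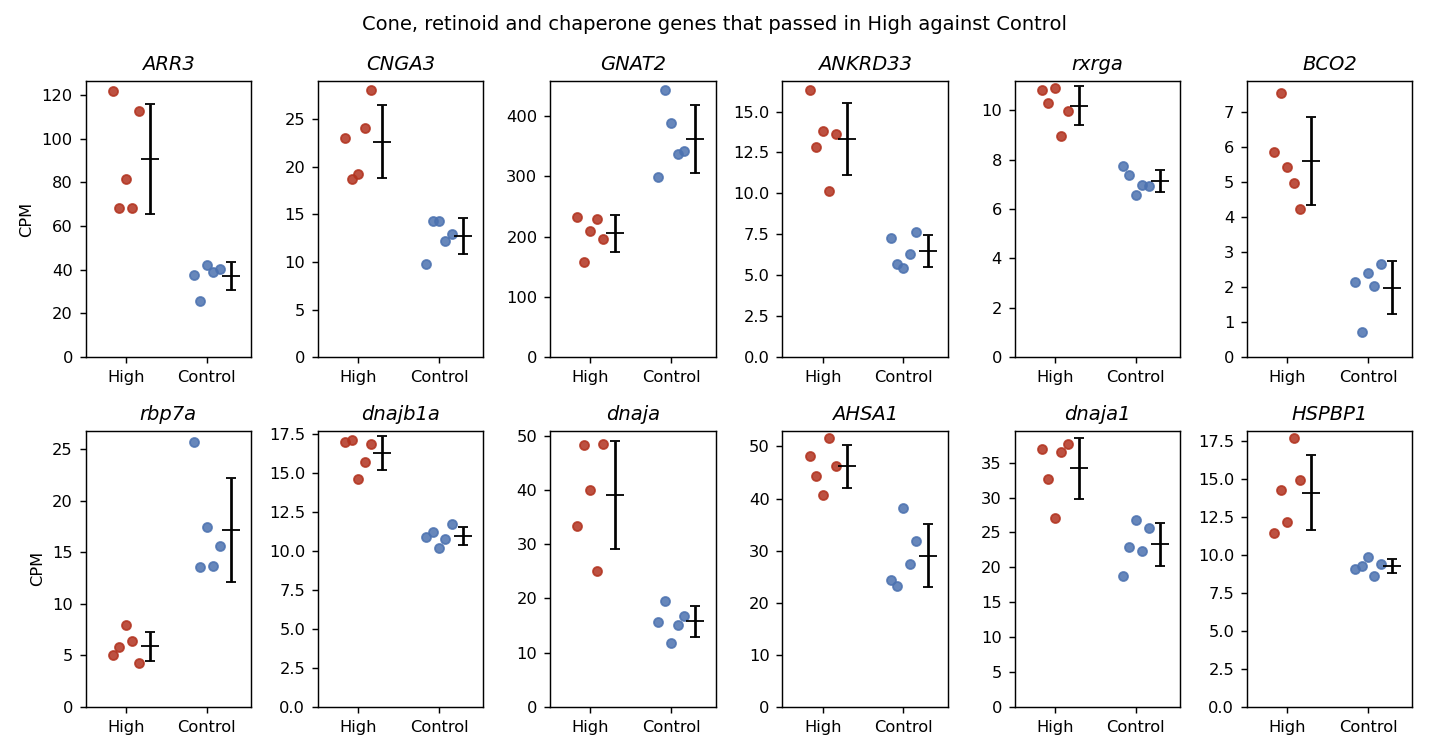
Each panel gives the CPM (y axis, from 0) of 1 gene in the 5 High (red) and 5 Control (blue) libraries with the mean ± SD, for 6 cone and retinoid genes in the upper row and for rbp7a and 5 chaperone genes in the lower row. GNAT2 and rbp7a are lower in High and the other 10 genes are higher. Only genes that passed in this contrast were drawn, so the lack of overlap in every panel is uninformative. ANKRD33 and HSPBP1 were picked after their values were seen, and HSPBAP1, which fell, is not drawn.

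Rods showed no gene that passed. Of 28 tested rod members 0 passed by edgeR, DESeq2 or limma voom, and the median was -0.29. At an unadjusted p under 0.05, 5 were lower and 0 higher, where 8.63% and 7.18% of all genes were. The rod transducin gene GNAT1 (ENSDARG00000044199) had a log2 fold change of -0.38 (edgeR adjusted p = 0.476). The mean log2 CPM of the rod list was 5.50, 4.97, 5.44, 4.86 and 5.09 in High 1 to 5, against 5.32, 5.63, 5.35, 5.30 and 5.38 in Control 1 to 5. High 1 and High 3 lay within the Control range and the other 3 High libraries below it. The lens crystallin list, genes of the transparent proteins of the lens, had 1 of 29 members above 0 and a median of -0.27. By edgeR, DESeq2 or limma voom 0 passed. At an unadjusted p under 0.05, 1 was lower and 0 higher, beside the same shares of all genes. The lens list's mean log2 CPM ran from 5.37 in High 4 to 7.92 in High 3, against 7.12 to 8.13 in Control, so the groups overlapped. The pan-neuronal gene ELAVL3 was steadier, between 208 and 333 CPM in every High, Control and Low library.

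The retinoid visual cycle regenerates the light-sensing chromophore, partly in the pigment epithelium behind the photoreceptors. Of its 24 tested members 0 passed by edgeR or limma voom and 6 were higher by DESeq2; 7 were higher and 1 lower at an unadjusted p under 0.05, compared with 7.18% and 8.63% of all genes. The median was 0.34, with 18 members above 0. RPE65, the isomerase of the pigment epithelium, has 3 tested copies. The first (ENSDARG00000007480) had 56.1, 31.9, 6.08, 73.96 and 68.4 CPM in High 1 to 5, against 4.40, 4.78, 20.4, 6.08 and 21.3 CPM in Control 1 to 5. High 3 was the High library lowest in this copy and lay within the Control range. The log2 fold change of 2.05 had an SE of 0.61 and did not pass (edgeR adjusted p = 0.12). DESeq2 called this copy (adjusted p = 0.0207) and limma voom did not (0.106). The other RPE65 copies had log2 fold changes of -0.56 and -0.14, with edgeR adjusted p of 0.48 and 0.9.

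Retinoic acid, made from vitamin A, signals through RAR and RXR nuclear receptors, and carotenoids are cut by the BCO enzymes. Of 33 tested members of this list 2 rose and 1 fell, beside 0.191% and 0.332% of all genes, with a median of 0.24 and 26 above 0. With the digestive covariate the list median was 0.109. The retinoid X receptor gene rxrga (ENSDARG00000005593) had 10.8, 10.3, 10.9, 8.96 and 9.95 CPM in High 1 to 5, against 7.75, 7.38, 6.57, 6.98 and 6.95 CPM in Control 1 to 5. Its values were tight within both groups, which did not overlap, and the log2 fold change was 0.51 (SE 0.089, edgeR adjusted p = 0.022; 6 calls in 10 fits with 1 library left out, up to an adjusted p of 0.074 without Control 4; 0.0739 in the 2-group fit). BCO2 (ENSDARG00000041715), a carotenoid-cleaving enzyme of mitochondria, had 5.87, 7.54, 5.42, 4.97 and 4.22 CPM in High 1 to 5, against 2.14, 0.729, 2.40, 2.03 and 2.65 CPM in Control 1 to 5. Control 2 was the lowest Control library, and the log2 fold change was 1.48 (SE 0.29, edgeR adjusted p = 0.035; 3 calls in 10 fits with 1 library left out, up to an adjusted p of 0.1 without High 2; 0.0799 in the 2-group fit). The member that fell was rbp7a (ENSDARG00000091906), a carrier of retinol inside cells, with 5.01, 5.79, 7.92, 6.36 and 4.26 CPM in High 1 to 5, against 25.7, 13.5, 17.4, 13.6 and 15.6 CPM in Control 1 to 5. Control 1 was the highest library, every High library was below every Control library, and the log2 fold change was -1.55 (SE 0.25, edgeR adjusted p = 0.019; 9 calls in 10 fits with 1 library left out, up to an adjusted p of 0.063 without High 1). A gene named nmnat1-rbp7a (ENSDARG00000055893) fell by 1.33 on the log2 scale. Its name implies shared sequence with rbp7a, so both values are uncertain. It had 6.70, 7.30, 10.75, 7.43 and 6.02 CPM in High 1 to 5, against 28.05, 15.3, 19.5, 15.5 and 17.5 CPM in Control 1 to 5. These lie close to the rbp7a values in each library, so the 2 calls are not taken as separate results. Whether the same reads were counted for both was not tested.

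**Figure D4:**
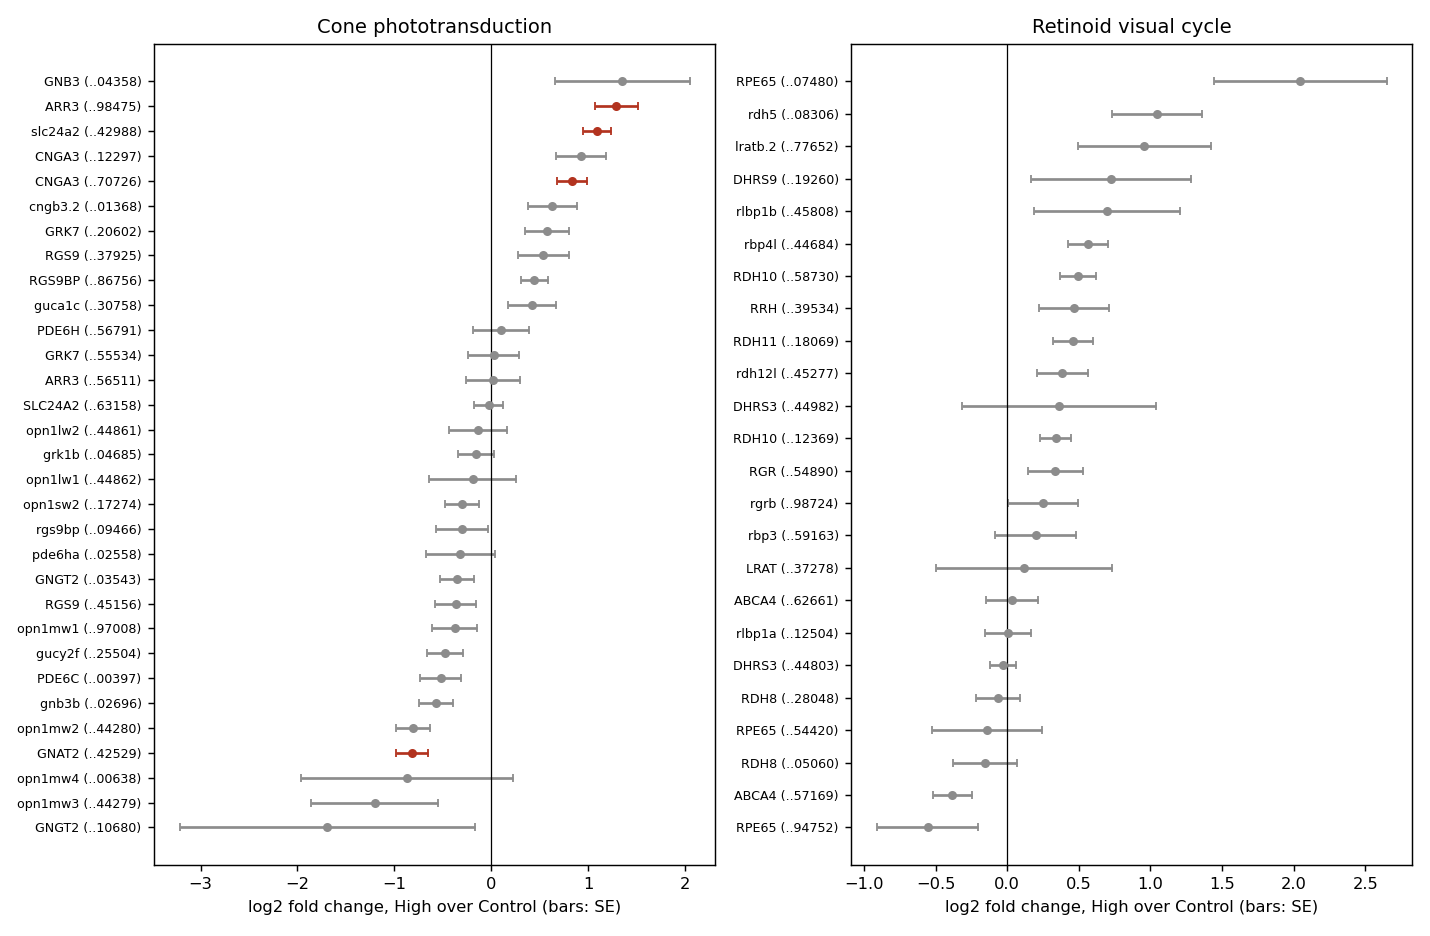
The log2 fold change of High over Control (x axis, bars are the SE) is drawn for each tested member of the cone list (left) and of the visual cycle list (right), with the last digits of the gene identifier beside each symbol and genes that passed in red. Members of the cone list lie on both sides of 0, with ARR3, slc24a2 and CNGA3 in red on the right and GNAT2 on the left, and 18 of 24 visual cycle members are above 0 with 0 in red.

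Heat shock chaperones fold client proteins, and their DnaJ cochaperones deliver the clients to Hsp70. Of 58 tested members of the list of chaperones and cochaperones 4 rose and 0 fell, compared with 0.191% and 0.332% of all genes. Of the 58, 25 were higher and 1 lower at an unadjusted p under 0.05, where 7.18% and 8.63% of all genes were. The median was 0.30, with 48 members above 0. The mean log2 CPM of the list was 4.42, 4.56, 4.59, 4.30 and 4.50 in High 1 to 5, against 4.09, 4.22, 4.28, 4.09 and 4.16 in Control 1 to 5. High 4 was the lowest High library and still above Control 3, the highest Control library, while the Low libraries, at 4.10 to 4.47, overlapped both. That the members were chosen with an earlier result on chaperones in these data known bears on each of these numbers.

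Of these 4, the smallest error was that of dnajb1a (ENSDARG00000099383), a stress-responsive DnaJ gene, with 16.98, 17.1, 14.6, 15.7 and 16.9 CPM in High 1 to 5, against 10.9, 11.2, 10.2, 10.8 and 11.7 CPM in Control 1 to 5. The spread within both groups was small, and the log2 fold change was 0.57 (SE 0.094, edgeR adjusted p = 0.02; 6 calls in 10 fits with 1 library left out, up to an adjusted p of 0.072 without Control 4). The related dnaja (ENSDARG00000051762) had 33.4, 48.2, 40.02, 25.1 and 48.5 CPM in High 1 to 5, against 15.7, 19.5, 11.8, 15.1 and 16.7 CPM in Control 1 to 5. High 4 was the lowest High library, and the log2 fold change was 1.31 (SE 0.23, edgeR adjusted p = 0.024; 5 calls in 10 fits with 1 library left out, up to an adjusted p of 0.076 without Control 4). AHSA1 (ENSDARG00000100317), an activator of the Hsp90 ATPase, had 46.2 ± 4.10 CPM in High and 29.02 ± 6.07 CPM in Control, and dnaja1 (ENSDARG00000030972) had 34.2 ± 4.42 CPM in High and 23.3 ± 3.11 CPM in Control (SD, n = 5 each). Their log2 fold changes were 0.67 and 0.55 (edgeR adjusted p = 0.036 and 0.038), each called in 3 of 10 fits with 1 library left out and not called with the digestive covariate (adjusted p = 0.053 and 0.058) or in the 2-group fit (0.0773 and 0.101).

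Other genes of this machinery outside the list or not passing gave a mixed picture. HSPBP1 (ENSDARG00000102937), a nucleotide exchange factor of Hsp70, and CACYBP (ENSDARG00000014731) rose by 0.61 and 0.37 on the log2 scale, and HSPBAP1 (ENSDARG00000033771), named for binding a small heat shock protein, fell by 0.59; all 3 were picked after their values were seen. Their edgeR adjusted p were 0.042, 0.042 and 0.025, and they were called in 1, 3 and 3 of 10 fits with 1 library left out. The digestive covariate ended the calls of HSPBP1 and CACYBP, at adjusted p of 0.056 and 0.053. The 2-group fit ended all 3, at 0.079, 0.101 and 0.0799. The inducible Hsp70 genes hsp70.1 (ENSDARG00000029688) and hsp70l (ENSDARG00000055723) had log2 fold changes of 0.58 and 0.38 with edgeR adjusted p of 0.24 and 0.58, and the small heat shock gene HSPB1 (ENSDARG00000041065) one of 0.18 with 0.75. These 3 did not pass, and their groups overlapped. The list of ribosome and proteasome genes, another part of protein turnover, had 49 of 52 members above 0 but a median of only 0.14. By edgeR, DESeq2 or limma voom 0 passed. At an unadjusted p under 0.05, 5 were higher and 0 lower (7.18% and 8.63% of all genes).

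The list of C/EBP and NF-kB genes, put together by name, holds factors that drive inflammatory and acute-phase genes, inhibitors of NF-kB, and other genes such as CEBPZ and IKBKB. It had 2 of 16 tested members that fell, CEBPD and REL, and 0 that rose, set beside the 0.332% of all genes that fell. Its median was -0.41, with 2 members above 0, and 9 were lower and 1 higher at an unadjusted p under 0.05 (8.63% and 7.18% of all genes). The higher one was CEBPZ. Among the 9 were the inhibitor genes nfkbiab, nfkbiaa, NFKBIE and TNFAIP3, picked after their values were seen. Their log2 fold changes were -0.82, -0.54, -0.54 and -0.54 and did not pass, so the list median does not stand for the driving factors alone. CEBPD (ENSDARG00000087303) had 45.8, 45.1, 52.7, 35.05 and 41.7 CPM in High 1 to 5, against 277, 105, 114, 147 and 94.4 CPM in Control 1 to 5. Control 1 stood far above the other libraries, yet the lowest Control library was still well above the highest High library, and the log2 fold change was -1.74 (SE 0.26, edgeR adjusted p = 0.013). REL (ENSDARG00000055276) had 13.6, 12.5, 15.6, 10.03 and 12.6 CPM in High 1 to 5, against 34.4, 20.6, 26.1, 28.7 and 24.9 CPM in Control 1 to 5. Control 1 was again the highest, the groups did not overlap, and the log2 fold change was -1.07 (SE 0.15, edgeR adjusted p = 0.0097). Both calls stood in all 10 fits with 1 library left out, with the highest adjusted p at 0.0498 for CEBPD, without High 4. The mean log2 CPM of the list was 4.09, 4.19, 4.23, 3.88 and 4.14 in High 1 to 5, against 4.80, 4.67, 4.44, 4.50 and 4.36 in Control 1 to 5, with no overlap. CEBPB (ENSDARG00000042725) and CEBPA (ENSDARG00000036074), picked as further C/EBP members after their values were seen, had log2 fold changes of -0.28 and -0.33 and did not pass (edgeR adjusted p = 0.48 and 0.24).

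The lists of immediate early and activity genes, of the glucocorticoid axis and its targets, and of the circadian clock had 0 members passing by edgeR. In the immediate early list 34 of 46 members were below 0 (median -0.18). At an unadjusted p under 0.05, 14 were lower and 2 higher, where 8.63% and 7.18% of all genes were. DESeq2 and limma voom called 8 and 3 lower. FOS (ENSDARG00000031683) had 8.76, 6.79, 9.32, 9.80 and 8.03 CPM in High 1 to 5, against 17.9, 21.7, 16.4, 16.02 and 14.9 CPM in Control 1 to 5. The groups did not overlap, but its log2 fold change of -1.03 did not pass (edgeR adjusted p = 0.073). It did pass in the 2-group fit, at 0.0174, by DESeq2 (adjusted p = 0.00561) and by limma voom (0.0462). With the digestive covariate FOS did not pass (0.0885). NR4A1 (ENSDARG00000000796), an orphan nuclear receptor of that list, had a log2 fold change of -0.39 (edgeR adjusted p = 0.392). Among genes of the glucocorticoid axis and its targets 18 of 24 were below 0 (median -0.37). At an unadjusted p under 0.05, 6 were lower (8.63% of all genes), and DESeq2 and limma voom called 4 and 3 lower. DDIT4 (ENSDARG00000037618), an inhibitor of mTOR signaling picked as the lowest of them after its values were seen, had 25.4 ± 5.52 CPM in High and 78.2 ± 60.6 CPM in Control, with an edgeR adjusted p of 0.061. The glucocorticoid receptor gene NR3C1 had a log2 fold change of -0.45 (edgeR adjusted p = 0.39). In the clock list 31 of 41 were below 0 (median -0.15). At an unadjusted p under 0.05, 8 were lower and 4 higher (8.63% and 7.18% of all genes). DESeq2 called 2 higher and 4 lower, and limma voom 1 lower. The period gene copies PER1 (ENSDARG00000012499 and ENSDARG00000056885) had log2 fold changes of -0.78 and -0.82 that did not pass (edgeR adjusted p = 0.09 and 0.26). The first copy passed by DESeq2 (adjusted p = 0.0183) and limma voom (0.042), with overlapping groups. The hour at which each library was collected is not given in the sources used here.

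Insulin acts through its receptor and the IRS adaptors. In the insulin and IGF list 1 of 39 tested members fell, IRS2, and 0 rose, where 0.332% of all genes fell. There were 14 lower and 0 higher at an unadjusted p under 0.05 (8.63% and 7.18% of all genes), and the median was -0.23. The copy of IRS2 that fell (ENSDARG00000075282) had 43.9, 43.5, 66.9, 43.2 and 56.1 CPM in High 1 to 5, against 94.8, 78.5, 85.5, 82.6 and 72.95 CPM in Control 1 to 5. High 3 was the High library nearest to Control, the groups did not overlap, and the log2 fold change was -0.71 (SE 0.12, edgeR adjusted p = 0.022; 4 calls in 10 fits with 1 library left out, up to an adjusted p of 0.072 without Control 4; 0.0747 in the 2-group fit). The second IRS2 copy (ENSDARG00000037099) and both INSR copies (ENSDARG00000011948 and ENSDARG00000071524) had log2 fold changes of -0.48, -0.30 and -0.33, and did not pass (edgeR adjusted p = 0.18, 0.16 and 0.17). Outside that list, TXNIP (ENSDARG00000036107), which binds thioredoxin and limits glucose uptake, had 279, 296, 398, 265 and 284 CPM in High 1 to 5, against 792, 540.1, 479, 537 and 424 CPM in Control 1 to 5. High 3 was again the highest High library, below every Control library, and the log2 fold change was -0.86 (SE 0.16, edgeR adjusted p = 0.035; 3 calls in 10 fits with 1 library left out, up to an adjusted p of 0.1 without High 4; 0.0955 in the 2-group fit). KLHL24 (ENSDARG00000008275), a ubiquitin ligase adaptor, had 41.7, 48.2, 71.4, 38.4 and 64.7 CPM in High 1 to 5, against 115, 112, 92.6, 104 and 109 CPM in Control 1 to 5. The groups did not overlap, and the log2 fold change was -1.01 (SE 0.17, edgeR adjusted p = 0.022; 5 calls in 10 fits with 1 library left out, up to an adjusted p of 0.066 without High 1). PDK2 (ENSDARG00000020876), a kinase that inhibits pyruvate dehydrogenase and was picked after its values were seen, fell by 0.86 on the log2 scale (edgeR adjusted p = 0.039; 3 calls in 10 fits with 1 library left out, up to an adjusted p of 0.12 without High 4; 0.0955 in the 2-group fit), with overlapping groups. The other PDK2 copy (ENSDARG00000059054) had a log2 fold change of -1.42 (SE 0.32) and did not pass (edgeR adjusted p = 0.062).

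For apoptosis and DNA damage, 2 of 46 tested members fell, CCNG2 and bbc3, and 0 rose, next to 0.332% of all genes that fell. At an unadjusted p under 0.05, 13 were lower and 1 higher (8.63% and 7.18% of all genes), and the median was -0.16. CCNG2 (ENSDARG00000017602), a cyclin that restrains the cell cycle, had 65.5 ± 7.24 CPM in High and 105 ± 20.00 CPM in Control (SD, n = 5 each). Its log2 fold change was -0.68 (SE 0.12, edgeR adjusted p = 0.025; 4 calls in 10 fits with 1 library left out, up to an adjusted p of 0.086 without High 4; 0.0769 in the 2-group fit). The gene bbc3 (ENSDARG00000069282), known as Puma and a trigger of apoptosis, had 4.49 ± 1.44 CPM in High and 10.4 ± 2.89 CPM in Control. For it, the log2 fold change was -1.21 (SE 0.24, edgeR adjusted p = 0.041; 3 calls in 10 fits with 1 library left out, up to an adjusted p of 0.11 without High 2). With the digestive covariate its adjusted p was 0.053, and in the 2-group fit 0.101. The cell cycle inhibitor gene cdkn1a (ENSDARG00000076554) had a log2 fold change of 0.64 and did not pass (edgeR adjusted p = 0.23).

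Arsenite is methylated in the liver for excretion and moved by aquaglyceroporins and ABC transporters. Of 34 tested members for arsenic methylation, reduction and transport 1 rose, pnp4a, and 0 fell, beside 0.191% and 0.332% of all genes. The list median was 0.24, with 26 members above 0, and with the digestive covariate the median was 0.072. The arsenite methyltransferase gene AS3MT (ENSDARG00000027572) had 12.7, 15.8, 16.8, 13.3 and 15.8 CPM in High 1 to 5, against 16.6, 14.4, 13.1, 13.8 and 15.4 CPM in Control 1 to 5. The groups overlapped, at 0.021 on the log2 scale (SE 0.13, edgeR adjusted p = 0.96). Purine nucleoside phosphorylases recycle purines; mammalian forms can reduce arsenate in vitro, and in zebrafish pnp4a is a marker of the reflective iridophores. It had 23.5, 27.6, 25.7, 12.7 and 15.4 CPM in High 1 to 5, against 11.1, 3.55, 10.7, 9.33 and 8.39 CPM in Control 1 to 5. High 4 was the lowest High library, the groups did not overlap, and the log2 fold change was 1.28 (SE 0.27, edgeR adjusted p = 0.048; 2 calls in 10 fits with 1 library left out, up to an adjusted p of 0.12 without High 2; 0.117 in the 2-group fit). It was also the 1 riser among 38 tested pigment cell genes, a list with a median of 0.060 and 23 members above 0.

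The Nrf2 and antioxidant list had 1 of 45 tested members that fell, TXNIP, and 0 that rose, where 0.332% and 0.191% of all genes did. TXNIP encodes the thioredoxin-binding protein described above and not an antioxidant enzyme. The median of that list was 0.048. HMOX1 (ENSDARG00000027529), GCLC (ENSDARG00000013095) and gstp1.1 (ENSDARG00000103019), classical responders to direct arsenic exposure, had log2 fold changes of 0.22, 0.25 and -0.081 that did not pass (edgeR adjusted p = 0.7, 0.24 and 0.91). The metal handling list had 0 of 28 passing by edgeR, DESeq2 or limma voom. At an unadjusted p under 0.05, 2 were higher and 0 lower, where 7.18% and 8.63% of all genes were. For ER stress 0 of 38 passed by edgeR or limma voom, and DESeq2 called 3 higher and 2 lower. At an unadjusted p under 0.05, 7 were higher and 2 lower, beside those same shares of all genes. In the chromatin list 1 of 39 fell, the histone demethylase gene kdm4aa (ENSDARG00000018782), beside 0.332% of all genes. For kdm4aa the log2 fold change was -0.69 (edgeR adjusted p = 0.039). It was called in 3 of 10 fits with 1 library left out, up to an adjusted p of 0.11 without High 2. In the 2-group fit its adjusted p was 0.101. The DNA methyltransferase gene DNMT1 (ENSDARG00000030756) had 83.02 ± 36.5 CPM in High and 68.9 ± 18.2 CPM in Control and an edgeR adjusted p of 0.71, with High 4 far above the other High libraries. The DNMT3A copies had log2 fold changes of -0.12 and 0.011.

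The list of nuclear receptors and corepressors also holds CDK8, which is neither. Of its 47 tested members 1 rose, CDK8, and 2 fell, esrrd and NCOR1, beside 0.191% and 0.332% of all genes. NCOR1 (ENSDARG00000035285), a corepressor of unliganded receptors, had 3.15, 2.03, 1.48, 2.14 and 2.79 CPM in High 1 to 5, against 12.8, 43.05, 29.97, 29.9 and 28.4 CPM in Control 1 to 5. The High libraries were all below the lowest Control library, but the Control values spread over a wide range, and the log2 fold change was -3.63 (SE 0.70, edgeR adjusted p = 0.042; 1 call in 10 fits with 1 library left out, up to an adjusted p of 0.12 without High 4). The digestive covariate moved the adjusted p to 0.053. Limma voom did not call NCOR1 (adjusted p = 0.0854), and DESeq2 did (1.17e-05). Low libraries were at 2.30, 49.02, 19.7, 22.7 and 3.82 CPM in Low 1 to 5 and so spanned both groups. CDK8 (ENSDARG00000016496), the kinase of the Mediator complex, had 6.65 ± 2.08 CPM in High and 2.48 ± 0.818 CPM in Control. Its log2 fold change was 1.42 (SE 0.27, edgeR adjusted p = 0.035; 4 calls in 10 fits with 1 library left out, up to an adjusted p of 0.086 without Control 4; 0.052 with the digestive covariate and 0.0744 in the 2-group fit). A few other genes were close to silent in High larvae, and 3 of them were picked for that after their values were seen. CHRNE (ENSDARG00000034307), a subunit of the muscle acetylcholine receptor, had 0.101 ± 0.0482 CPM in High and 2.73 ± 1.15 CPM in Control, ggt1l2.2 (ENSDARG00000087054) had 0.0578 ± 0.0391 CPM in High and 0.739 ± 0.264 CPM in Control, and AMIGO3 (ENSDARG00000074469) had 0.0416 ± 0.0390 CPM in High and 0.652 ± 0.149 CPM in Control (SD, n = 5 each). Their calls stood in 4, 8 and 1 of 10 fits with 1 library left out, and the digestive covariate ended that of AMIGO3 (adjusted p = 0.054). By limma voom CHRNE did not pass (adjusted p = 0.11), and ggt1l2.2 and AMIGO3 did (0.0398 and 0.0481).

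Of 42 tested members of the sodium pump and ionocyte list 1 rose, slc24a2, and 1 fell, ATP1B2, with a median of 0.012. The glutamate list had 1 of 42 that fell, slc1a8b, and 0 that rose. Lists not yet described held 1 called member or none. Beside each count of this paragraph, 0.191% of all genes tested rose and 0.332% fell. The lipoprotein receptor gene ldlrb (ENSDARG00000026759) was the 1 riser of 36 cholesterol genes (log2 fold change 0.74, edgeR adjusted p = 0.047; 2 calls in 10 fits with 1 library left out, up to an adjusted p of 0.11 without Control 4; 0.054 with the digestive covariate and 0.0767 in the 2-group fit), a list with a median of 0.53 and 29 members above 0. That list's median was 0.28 with the digestive covariate. The interferon list had 1 riser of 32, the finTRIM gene ftr86 (ENSDARG00000076839; log2 fold change 0.89, edgeR adjusted p = 0.02; 6 calls in 10 fits with 1 library left out, up to an adjusted p of 0.072 without Control 4), while 25 members were below 0 and the median was -0.38. Among 51 neuronal genes 1 rose, the SKI-family corepressor gene skor1a (ENSDARG00000069030; log2 fold change 0.83, edgeR adjusted p = 0.022; 6 calls in 10 fits with 1 library left out, up to an adjusted p of 0.074 without Control 4), and 30 were below 0, with a median of -0.019. Liver genes had a median of 1.07, with 57 of 64 above 0 and 0 passing by edgeR, DESeq2 or limma voom. At an unadjusted p under 0.05, 2 were higher and 0 lower, where 7.18% and 8.63% of all genes were. With the digestive covariate, which the liver genes help to make, the liver median was -0.11. The liver list's mean log2 CPM was 4.78 to 6.18 in 4 High libraries and 0.06 in High 3, against 0.12 to 5.91 in Control.

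**Figure D5:**
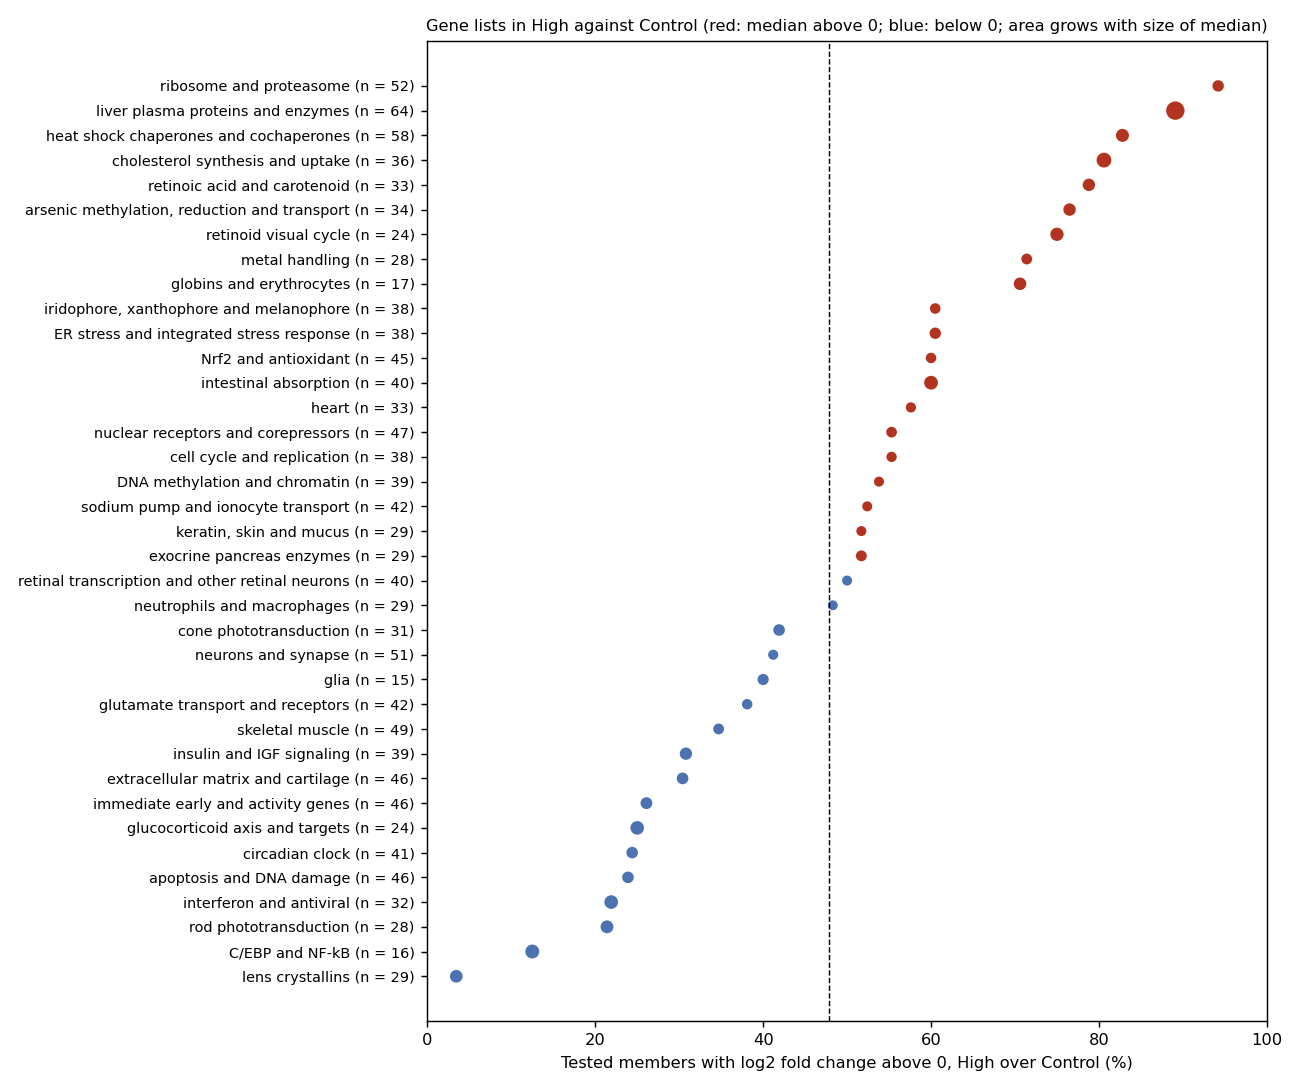
Each dot is 1 gene list, placed by the percentage of its tested members with a log2 fold change above 0 in High over Control (x axis) and coloured by the sign of the list median, with an area that grows with the size of the median; the dashed line is the 47.9% of all genes tested. Ribosome and proteasome genes are at the top, and C/EBP and NF-kB genes and lens crystallins are at the bottom.

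Zebrafish keep many genes as duplicates, and the table of symbols gives such copies 1 name. Among the 115 genes, 23 symbols had a copy that passed and at least 1 other tested copy. For 2 of these symbols, HCCS and PRKCH (a protein kinase C), all tested copies passed; for the other 21 only 1 did. Of 23 copies that did not pass, 18 had the same sign as the copy that passed and 5 the opposite one. PRKCH fell in both copies, by 0.85 (ENSDARG00000018382, edgeR adjusted p = 0.022) and, in the copy outside the rule for naming and picked after its values were seen, by 1.07 (ENSDARG00000043243, 0.035; 0.0767 in the 2-group fit) on the log2 scale. In BCO2 and TXNIP the copies that did not pass had log2 fold changes of -0.081 (ENSDARG00000055722) and -0.30 (ENSDARG00000070000). A difference between copies was not itself tested.

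High larvae were also set against larvae of Low parents in the same fit, where 377 genes passed (1.71% of those tested). That number was 39 without Low 3, 3778 without Low 5 and 65 with the digestive covariate. Both comparisons use the same High libraries, so their values are given side by side and not as support for each other. For slc24a2 the log2 fold change was 1.60 in High over Low and 1.09 in High over Control; for ARR3 it was 1.90 and 1.29, for slc1a8b -3.03 and -3.35, and for REL -0.66 and -1.07. Each of these 4 also passed against Low, and so did others that passed against Control. Among them were HCCS (ENSDARG00000099358), DHRS13, esrrd, CNGA3, rxrga, BCO2, GNAT2 and pnp4a (edgeR adjusted p of 0.0059 to 0.02). Some genes that passed against Control did not pass against Low, such as dnajb1a with 0.31 (edgeR adjusted p = 0.086) and dnaja with 0.47 (0.24). IRS2 at -0.21 (0.32), TXNIP at -0.43 (0.15) and CEBPD at -1.05 (0.055) did not pass either. Both sets are examples, and neither is complete. Whether the Low and Control values of these genes differ is another comparison, not given here. The Low libraries of dnajb1a, at 13.6, 15.01, 13.9, 11.9 and 11.04 CPM in Low 1 to 5, and of CEBPD, at 105, 77.7, 119, 84.6 and 70.1 CPM, overlapped the Control libraries, and for dnajb1a also the High ones.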

How the data were processed

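RNA of whole larvae was sequenced in 15 libraries (High, Low and Control, 5 each) as paired reads of 100 bp, from RNA with an integrity number above 8, per the labels' protocols. The authors deposited 1 table of raw read counts per Ensembl gene, with no normalization. Trimmomatic, FastQC, MultiQC and DESeq2 stand in the submitters' processing notes, with the builds GRCz11 and mm10 (mouse). Aligner, counter and strand setting are not given in these sources, so reads of overlapping or near-identical genes cannot be told apart. The table held 32520 genes and 15 lines with no gene name and 0 counts, which were left out; 3585 genes had a total of 0. Symbols matched 29201 identifiers, and 6314 share a symbol with another. No libraries were duplicates: the chi-square per gene within a group was 18.2 or more.

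Genes were filtered with filterByExpr, scaled with TMM and tested with edgeR 4.0.16 (R 4.3.3), by the robust quasi-likelihood test on all 15 libraries with 1 coefficient per group. Adjusted p-values are Benjamini-Hochberg values over 22012 genes, with a threshold of 0.05. The SE of a log2 fold change was taken from its F statistic. CPM use TMM-scaled totals, and log2 CPM a prior count of 2. A list's level is the mean log2 CPM of its tested members. The code was tested on simulated counts first.

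The members, the 37 gene lists (1453 names; 993 matched by symbol, 365 without the copy letter, 24 by synonym, 71 unmatched), the tests and the rule for names were chosen with earlier results of these data known. The rule named, among genes that passed with an informative symbol, the 30 with the smallest p and a mean log2 CPM of at least 1 (15 up and 15 down), called list members, genes called in every fit with 1 library left out, and a set of readouts whether or not they passed; fabp10a, ELAVL3, further copies of named genes and the genes marked in the text lie outside it and were picked after values were seen. All 28 readouts that were tested are reported. Alternatives were DESeq2 1.42.0, limma 3.58.1 voom, other scalings and filters, a fit on the groups compared, a replicate block, a digestive covariate, a threshold of 0.01 and each library left out.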

Additional observations from a re-analysis of the deposited data

Results flagged for a closer look

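In 8 of 144 groups of 5 libraries, over the genes named in High and Control, 1 library lay apart from the other 4 by more than Dixon's 95% critical value of 0.71; chance alone gives about 1 in 20.

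In High larvae, High 3 was the high library for 3 genes. ARRDC2 (ENSDARG00000020761) was at 63.5 CPM there, compared with 38.4 to 45.4 CPM in the other High libraries, and TXNIP (ENSDARG00000036107) at 398 CPM, compared with 265 to 296 CPM. The period gene PER1 (ENSDARG00000056885) was at 1.52 CPM in High 3 and 0.45 to 0.687 CPM elsewhere in High. For ARRDC2 and TXNIP, which fell in High, this library lay nearest to Control and still below it. High 4 had 147 CPM of DNMT1 (ENSDARG00000030756), compared with 56.3 to 76.4 CPM in the other High libraries.

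In Control larvae, Control 2 stood apart for ARR3 and hsp70l. The cone arrestin gene ARR3 (ENSDARG00000098475) was at 25.8 CPM in it and 37.6 to 42.1 CPM in the other Control libraries. The heat shock gene hsp70l (ENSDARG00000055723) was at 36.3 CPM, compared with 11.4 to 17.4 CPM. CEBPD (ENSDARG00000087303) was at 277 CPM in Control 1 and 94.4 to 147 CPM in the rest, and the red opsin gene opn1lw1 (ENSDARG00000044862) at 32.1 CPM in Control 3 and 19.2 to 21.4 CPM in the rest. Without Control 1, CEBPD still passed (adjusted p of up to 0.0498 over all 10 fits with 1 library left out), and without High 3 ARRDC2 did too.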

How the results depend on the processing

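High against Control gave 115 genes (42 higher and 73 lower). The count was 920 by DESeq2 (461 higher and 459 lower), 275 by limma voom with sample weights, 51 in a fit on those groups alone, 10 at a threshold of 0.01, 317 without Control 5 and High 3 together (added after the data were seen), and 19 to 362 with 1 library left out. It stayed within 1.5 times under both other scalings, without a filter, with the digestive covariate (24 higher and 61 lower) and with a filter of 1 CPM in 5 libraries, where 54 were higher and 58 lower. Of 45 named genes that passed, 32 lost the call under the replicate block, 31 without High 1, 31 without Control 4, 14 in the fit on those groups alone, 8 with the digestive covariate and 0 without High 3. High against Low gave 377 genes, and 1650 by DESeq2, 4656 by limma voom, 118 in a fit on those groups alone, 65 with the digestive covariate, 13 at a threshold of 0.01, and 39 to 3778 with 1 library left out. The cause of these shifts was not tested. The difference in digestive level, 1.33, ran from 0.639 to 2.36 with 1 library left out.

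With the replicate number as a block, 20 genes passed in High against Control (5 higher and 15 lower; 18 of the 115) and 106 in High against Low. Of the 12 named genes called in every fit with 1 library left out, DHRS13, NEK6 and TMEM175 had adjusted p of 0.0533, 0.0713 and 0.0554 there. The labels do not say that a number marks a shared clutch or day, and the numbers were not taken to pair libraries. Same-numbered High and Control deviations correlated at -0.398 to 0.364, with 4 of 5 pairs above 0.1. Of the 5 High libraries 1, and of the 5 Control libraries 2, correlated best with the same number in the other group. Over all 3 groups the median correlation was 0.227 for 15 same-numbered pairs and -0.056 for 60 other pairs, a hint from the data and not from the design.

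Directions reversed only for readouts that did not pass, while the genes that passed were chosen by this same contrast. With 1 library left out, the log2 fold change ran from -0.022 to 0.421 for DNMT1, -0.232 to 0.013 for DNMT3A (ENSDARG00000005394), -0.078 to 0.1 for DNMT3A (ENSDARG00000015566), -0.477 to 0.036 for opn1lw1, -0.204 to 0.091 for gstp1.1, -0.312 to 0.191 for RPE65 (ENSDARG00000054420) and -0.025 to 0.074 for AS3MT. AS3MT was at -0.006 without Control 5 and High 3, and DNMT3A (ENSDARG00000015566) at -0.004 with upper quartile scaling and -0.037 by limma voom. List medians kept their sign under all 13 alternatives in 20 of 37 lists; the liver, pancreas and intestine medians, 1.07, 0.086 and 0.40, were -0.11, -1.34 and -0.58 with the digestive covariate.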

Other observations

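Genes outside the lists were also among those with the smallest p in High against Control larvae. The protein phosphatase catalytic subunit gene PPP4C (ENSDARG00000076439) had 102, 97.3, 95.1, 112 and 94.2 CPM in High 1 to 5, against 63.9, 52.8, 70.1, 66.3 and 72.8 CPM in Control 1 to 5. All High libraries were above all Control libraries, and the log2 fold change was 0.62 (SE 0.11, edgeR adjusted p = 0.025; 4 calls in 10 fits with 1 library left out, up to an adjusted p of 0.074 without Control 4). YBEY (ENSDARG00000110510), a gene of the ribosomal RNA endonuclease family, PDCD7 (ENSDARG00000038976), of the minor spliceosome, and C1D (ENSDARG00000021112), a cofactor of the nuclear exosome, rose by 1.14, 0.69 and 0.52 on the log2 scale (edgeR adjusted p = 0.02, 0.023 and 0.025). They were called in 6, 4 and 4 of 10 fits with 1 library left out. A second YBEY copy (ENSDARG00000011999) had a log2 fold change of -0.475 and did not pass (edgeR adjusted p = 0.58). C1D was at 0.0734 in a fit on the High and Control libraries alone. Among genes that fell, the membrane serine protease gene st14 (ENSDARG00000100088) had 40.1 ± 2.59 CPM in High and 56.3 ± 4.10 CPM in Control, the cytoskeletal anchor gene PHLDB2 (ENSDARG00000074843) 23.6 ± 1.92 CPM in High and 35.5 ± 3.85 CPM in Control, and the amino acid oxidase gene il4i1 (ENSDARG00000056804) 2.33 ± 0.445 CPM in High and 4.32 ± 0.589 CPM in Control (SD, n = 5 each). Their log2 fold changes were -0.49, -0.59 and -0.89 (edgeR adjusted p = 0.019, 0.02 and 0.023), with calls in 8, 5 and 6 of the 10 fits; il4i1 was at 0.0823 in that fit on both groups alone.

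Several readouts of hormone and xenobiotic response did not pass. CYP1A1 (ENSDARG00000098315), the enzyme induced through the aryl hydrocarbon receptor, had 32.95, 38.1, 21.9, 55.4 and 27.97 CPM in High 1 to 5, against 28.7, 36.5, 18.9, 31.6 and 15.4 CPM in Control 1 to 5. The groups overlapped, with a log2 fold change of 0.43 and an SE of 0.46. FKBP5 (ENSDARG00000028396), a cochaperone induced by glucocorticoids, ranged over 204, 249, 416, 84.5 and 123 CPM in High 1 to 5, against 501, 100.5, 335, 402 and 208 CPM in Control 1 to 5. Libraries of both groups covered most of that range, and the edgeR adjusted p was 0.83. Skeletal muscle and extracellular matrix lists had 32 of 49 and 32 of 46 members below 0, with 0 passing by edgeR in either. At an unadjusted p under 0.05, 3 and 2 were lower and 0 and 1 higher. Of all genes 8.63% were lower and 7.18% higher. For muscle, DESeq2 called 2 and limma voom 1 lower; for matrix, DESeq2 called 1 higher and 1 lower and limma voom 1 lower.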
